A study of Mus musculus with 5 samples.

Results

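The voltage-gated ion channel subunits described here are 5 genes that the authors list among the splicing targets of PQBP1: Cacna1b and Cacnb3 (calcium), Scn3a and Scn8a (sodium) and Kcnd3 (potassium). Every junction of every event under these gene names in the authors' deposited table was taken, which gave 5 events with 15 junctions, out of 585 events with 1402 junctions in 457 named genes. Each gene has 1 event. The genes were in the list because the authors' p compared knockdown with mock, so all folds and p-values below describe that selection, and no test of them is made.

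Cortical neurons of C57BL/6 mouse embryos (E16.5) were studied on day 5 in vitro in 2 groups. PQBP1 knockdown neurons received lentivirus with a hairpin RNA against PQBP1 (2 samples), and mock knockdown neurons received lentivirus with a non-targeting hairpin (3 samples). Both groups had thus been infected, each with 1 kind of hairpin per the labels, and the labels do not say whether samples were separate cultures. PolyA RNA was sequenced, and the table gives 1 log2 fold (knockdown over mock) and 1 p-value for each junction, with no value for any sample. Depth, the spread between samples and overlap of the groups are therefore unknown, no SD or n stands beside the folds, and neither the level of Pqbp1 nor markers of neurons could be checked.

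PQBP1 is a nuclear protein that binds spliceosome components, and mutated forms of it cause intellectual disability inherited through the X chromosome. Voltage-gated channels open when the membrane depolarizes: sodium channels carry the rising phase of the action potential, potassium channels end it and set firing frequency, and presynaptic calcium channels couple it to transmitter release. The pore of calcium and sodium channels is built by 1 large alpha subunit with 4 homologous domains, and that of Kv potassium channels by 4 separate alpha subunits. Alternative exons of these subunits are a well known way in which neurons change gating and channel number during development.

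The exons at which the junctions end are shown first, read from GENCODE M21 transcripts on the same assembly (mm10, GRCm38). In Cacna1b the event lies at a pair of neighbouring exons known as 37a and 37b, which encode alternative versions of a stretch of the cytoplasmic C-terminus. Exon 37b lies at chr2:24625238-24625334 and exon 37a at chr2:24626823-24626919, both on the minus strand and both 97 nt long. Capitals mark the 40 positions at which they differ, and the other 57 are identical (58.8%).
Exon 37b: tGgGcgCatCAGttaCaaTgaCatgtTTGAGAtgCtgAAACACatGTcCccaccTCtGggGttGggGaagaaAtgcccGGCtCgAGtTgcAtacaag
Exon 37a: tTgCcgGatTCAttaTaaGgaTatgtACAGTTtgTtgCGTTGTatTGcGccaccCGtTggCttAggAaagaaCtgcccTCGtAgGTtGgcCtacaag

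In Scn8a the event lies at exons 18N and 18A, an alternative pair in domain III that neurons switch during development. Exon 18N at chr15:101023839-101023906 (68 nt, plus strand) holds an in-frame stop codon, in capitals, that begins at base 28 of the exon when read from the preceding exon. Exon 18A at chr15:101024261-101024383 (123 nt) encodes 41 codons of the channel and holds none.
Exon 18N: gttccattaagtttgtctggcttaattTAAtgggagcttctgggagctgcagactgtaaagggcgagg
Exon 18A: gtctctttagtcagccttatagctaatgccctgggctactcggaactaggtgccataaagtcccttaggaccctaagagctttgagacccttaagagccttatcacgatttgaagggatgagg

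The Kcnd3 exon at chr3:105666962-105667018 (57 nt, plus strand) adds 19 codons, with no stop codon in frame, to the cytoplasmic C-terminus of the channel.
Kcnd3 exon: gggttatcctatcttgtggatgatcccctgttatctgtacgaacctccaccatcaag

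The Cacnb3 event is a choice of first exons, each with its own start codon, in capitals. The coding part of the proximal first exon (chr15:98635169-98635213) holds 15 codons and that of the distal one (chr15:98632479-98632520) holds 14, and both join the same second exon at chr15:98639488-98639610.
Proximal first exon, coding part: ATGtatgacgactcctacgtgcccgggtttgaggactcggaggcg
Distal first exon, coding part: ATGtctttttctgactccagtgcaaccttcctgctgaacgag

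In Scn3a the choice is among donor sites at the end of exon 12 (chr2:65508462-65508662, minus strand). The last 20 bases of that exon are shown joined to the first 20 of exon 13, in capitals, as the annotated donor joins them. The unannotated donors insert intron sequence at this point, which is not shown here.
Scn3a, exons 12 and 13 joined: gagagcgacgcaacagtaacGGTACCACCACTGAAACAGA

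**Figure D1:**
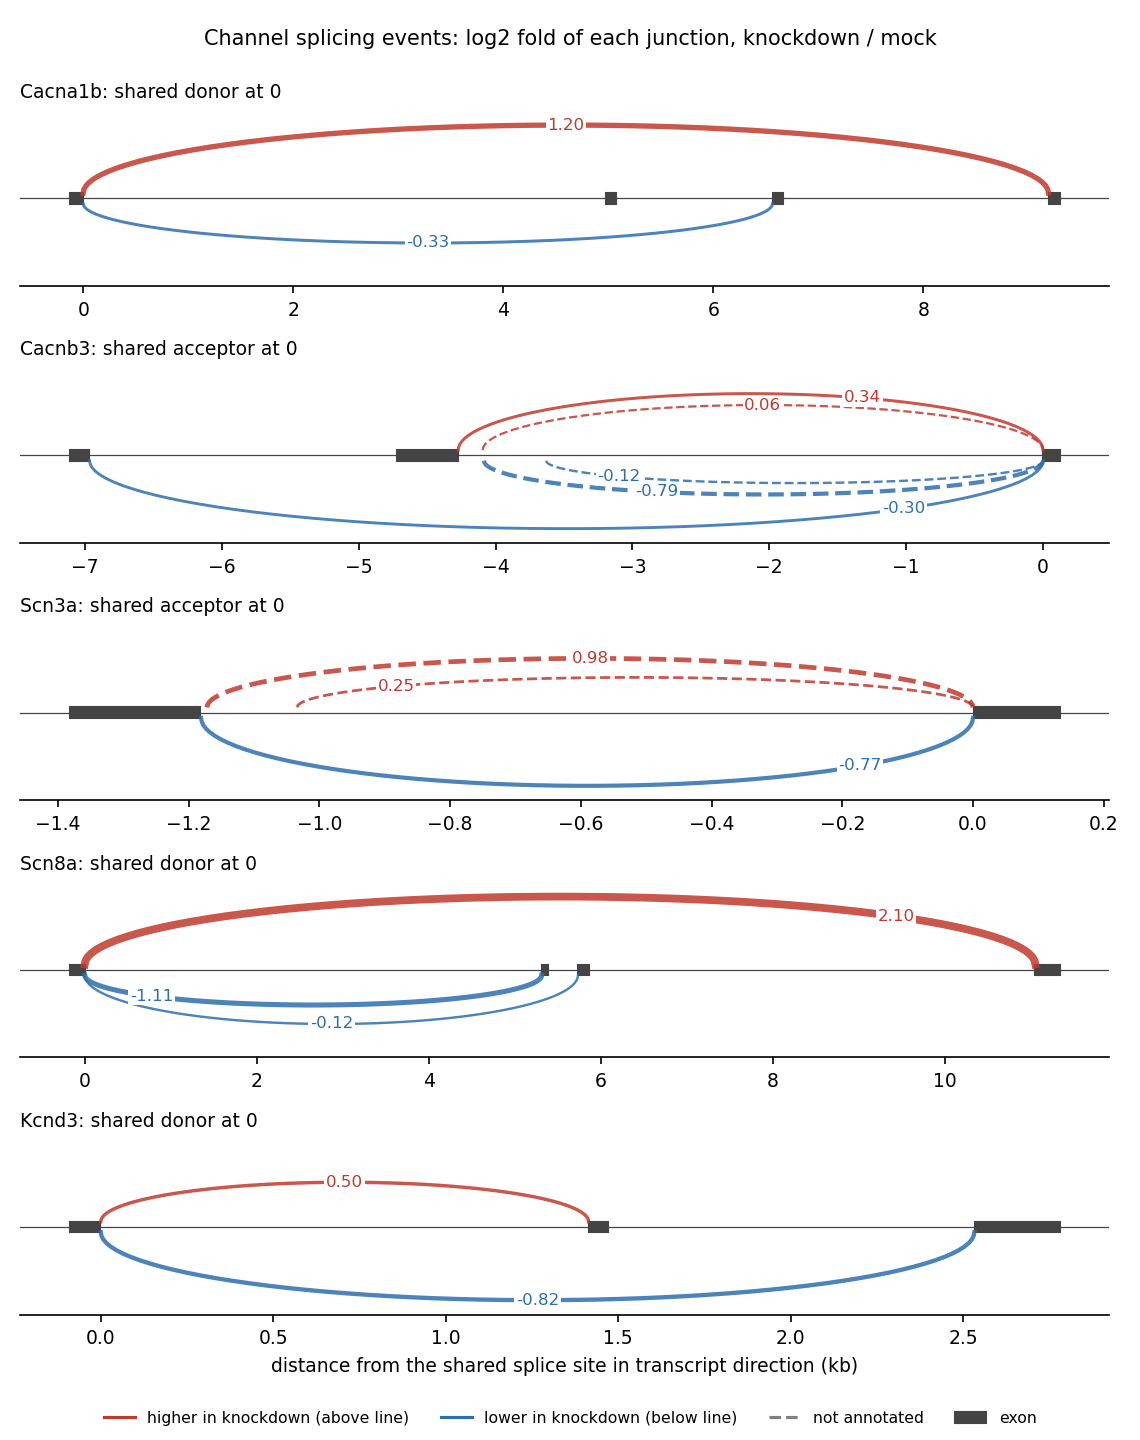
Each row is 1 event drawn to its own scale along the transcript, with distance from the shared splice site in kb on the horizontal axis and exons as boxes. Arcs above the line are junctions with a higher relative use in the knockdown and arcs below the line are lower, with the deposited log2 fold on each arc, its size as line width, and dashes for junctions that are not annotated. In Cacna1b (1.20) and Scn8a (2.10) the arc that passes over the exons is the higher one, and in Kcnd3 (-0.82) it is the lower one.

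Cacna1b encodes the pore subunit of the presynaptic N-type channel Cav2.2. After knockdown its transcripts joined the preceding exon to exon 37b less and passed over it more. In the authors' deposited table the log2 fold of relative use was -0.33 for the junction to exon 37b, which means 0.793 times the mock use. For the junction that skips exons 37a and 37b, the log2 fold in the authors' deposited table was 1.20, or 2.30 times the mock use, and both junctions had p = 0.0485. The ratio of skipping to exon 37b was 2.89 times that of the mock knockdown. No junction to exon 37a is listed in the event, so how the neurons used it is not known from these values. In bulk RNA such as this, a change of splicing within cells and a change in the mix of cells cannot be told apart, nor can fewer cells of a type and less RNA per cell.

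The reading frame ends early when exons 37a and 37b are both skipped. The length of exon 37b leaves a remainder on division by 3. Without it, the exons of a full-length gene model reach a TGA stop in the following exon at chr2:24622599-24622707. The stop starts at base 14 past the new junction. This leaves 1736 of 2327 codons and puts the stop 1145 nt before the last exon junction. The only gene model with the skipping junction is annotated as a target of nonsense-mediated decay, the pathway that degrades messages whose stop lies well before the last junction. Levels of Cacna1b message or protein were not measured in this table.

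Cacnb3 encodes the beta-3 subunit, a cytoplasmic partner that brings calcium channel pores to the membrane and tunes their gating. Its transcripts used the proximal first exon more and the distal first exon less after knockdown. The log2 fold in the authors' deposited table was 0.34 for the junction from the proximal first exon (p = 0.0194), the smallest p of any channel junction. The distal first exon, 6967 nt from the second exon, had a log2 fold of -0.30 (p = 0.0411) in the authors' deposited table. Proximal use relative to distal use was 1.56 times that of the mock knockdown, the narrowest shift among the pairs of junctions with p under 0.05 on both sides.

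The other 3 Cacnb3 junctions start at donors that are not annotated, 179, 188 and 643 nt past the proximal donor. Their log2 folds in the authors' deposited table were 0.06 (p = 0.939), -0.79 (p = 0.346) and -0.12 (p = 0.919). None of them passed 0.05, although the fold of the donor at 188 nt was larger in size than those of both annotated first exons. Since the first exon is set by where transcription starts, relative use of these junctions combines promoter choice and splicing, which cannot be told apart here.

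Scn8a encodes Nav1.6, the main sodium channel of the mature axon initial segment and nodes of Ranvier. The junction that passes over both alternative exons, from chr15:101018351-101018524 to chr15:101029578-101029862, was used more after knockdown. Its log2 fold in the authors' deposited table was 2.10 (p = 0.0466), or 4.28 times the mock use, the largest fold of the 15 channel junctions in either direction. The junction to exon 18A, which yields the full channel, had a log2 fold of -0.12 (p = 0.757) in the authors' deposited table. The junction to exon 18N, which yields the truncated form, had a log2 fold of -1.11 (p = 0.160) in the authors' deposited table. Only the skipping junction of this event had p under 0.05.

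Taken as ratios, skipping to exon 18A was 4.65 times and skipping to exon 18N 9.21 times that of the mock knockdown. The ratio of exon 18N to exon 18A was 0.505 times the mock ratio, between 2 junctions that each missed 0.05. Skipping removes the 41 codons of exon 18A in frame, and the joined downstream exon of 285 nt holds no in-frame stop. The gene models list it as protein-coding.

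Scn3a encodes Nav1.3, a sodium channel of embryonic neurons whose level declines after birth. Knockdown neurons used the annotated donor of exon 12 less and a donor just past it more. The annotated donor had a log2 fold of -0.77 (p = 0.0371), or 0.588 times the mock use, in the authors' deposited table. The donor 9 nt further on, which is not annotated, had a log2 fold of 0.98 (p = 0.0485), or 1.97 times, in the authors' deposited table. It is the only unannotated channel junction with p under 0.05. The ratio of the longer form to the annotated one was 3.35 times that of the mock knockdown.

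A further donor lies 147 nt past the annotated one and had a log2 fold of 0.25 (p = 0.792) in the authors' deposited table. Both extensions are multiples of 3, equal to 3 and 49 codons. Whether the inserted bases hold a stop codon was not examined. Alternative donors of this exon are known in human SCN3A, where they lengthen the cytoplasmic loop between domains I and II. How the authors told reads of the 2 donors 9 nt apart from each other is not given in the sources used here.

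Kcnd3 encodes Kv4.3, a pore subunit of the A-type potassium current that delays firing in dendrites and cell bodies. It went towards inclusion of its exon of 57 nt after knockdown. The log2 fold in the authors' deposited table was 0.50 for the junction to the exon, or 1.41 times the mock use, and -0.82 for the skipping junction, or 0.565 times (p = 0.0283 for both). The ratio of inclusion to skipping was 2.50 times that of the mock knockdown. Gene models with and without the exon are both protein-coding, and 2 of them hold the inclusion junction.

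**Figure D2:**
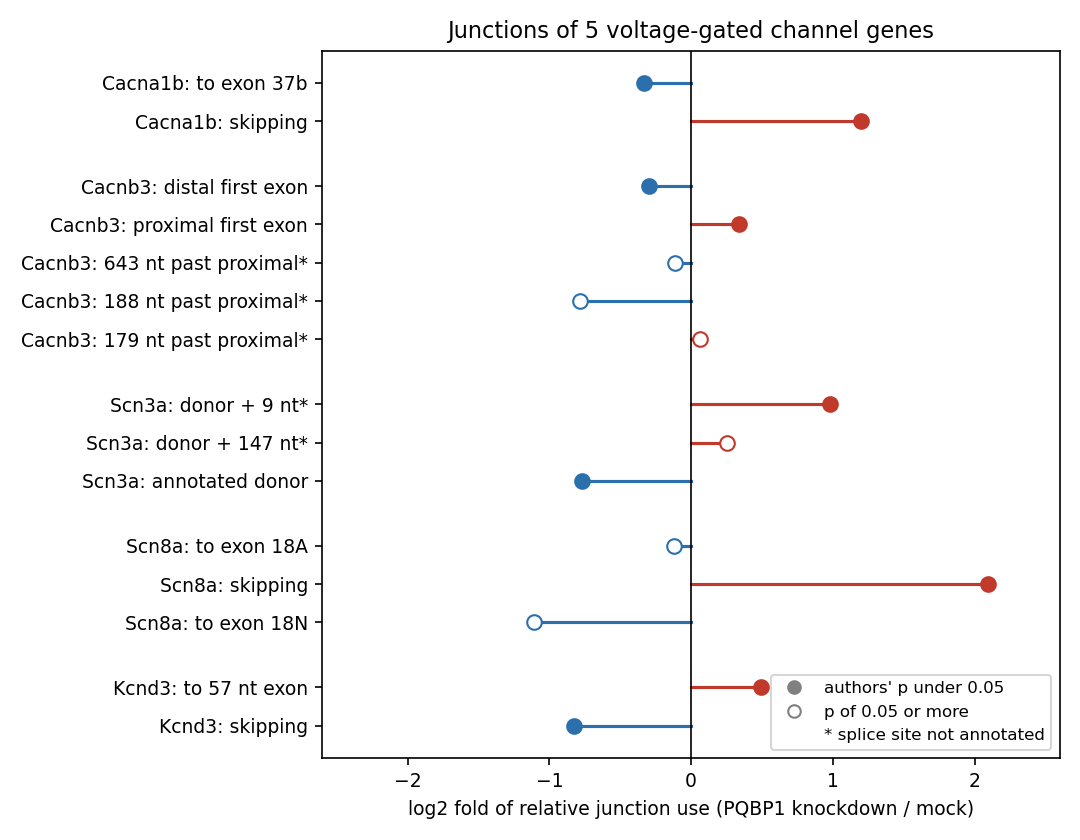
Horizontal bars give the deposited log2 fold of relative use (knockdown over mock) of each of the 15 channel junctions, grouped by gene. Filled points have p under 0.05 in the deposited table, open points do not, and asterisks mark splice sites that are not annotated. The skipping junction of Scn8a is the highest at 2.10 and the junction to its exon 18N the lowest at -1.11, and each gene has junctions on both sides of 0.

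The junctions of an event are measured against each other. In all 585 events some folds were above 0 and some below, and in all 408 events of 2 junctions both had the same p (relative tolerance 1e-06) and opposite signs. If the relative uses in an event add up to the whole in each group, which the table does not state, the folds of 2 junctions fix their shares. For Cacna1b the implied share of exon 37b, out of the 2 listed junctions alone, was 68.4% in the knockdown and 86.2% in the mock knockdown. For the Kcnd3 exon it was 72.6% in the knockdown and 51.5% in the mock knockdown. The change in share was -17.8 percentage points in Cacna1b and 21.1 in Kcnd3, knockdown minus mock. Exon 37a has no junction in the Cacna1b event, so these shares leave out any transcripts that use it.

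With 3 junctions only a range follows. Skipping in Scn8a had an implied share between 10.3% and 60.1% in the knockdown and between 2.42% and 14.1% in the mock knockdown. The annotated donor of Scn3a had between 18.5% and 41.2% in the knockdown and between 31.5% and 70.1% in the mock knockdown. The ranges of the groups overlap in both genes because each allows every split among the other junctions. Within any 1 split the knockdown share is the mock share times the fold, 4.28 for Scn8a skipping and 0.588 for the Scn3a donor. The overlap therefore does not mean that the groups could have equal shares under this assumption. For Cacnb3, with 5 junctions, the range of each junction starts at 0 and says little. In the whole list, 54 cassette exons are listed from both their donor and their acceptor side. The shares implied from the 2 sides differed by a median of 3.42 percentage points in the knockdown and 1.89 in the mock knockdown. This does not test the assumption, because both sides were computed under it and the skipping junction is common to both. The channel exons have no such second listing.

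**Figure D3:**
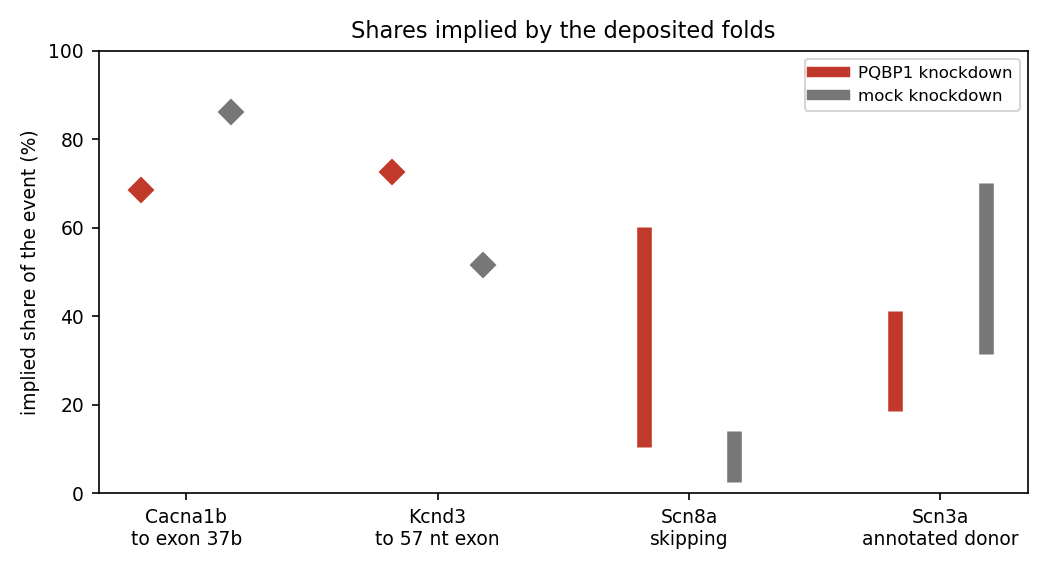
The vertical axis is the share of an event, in percent, that the deposited folds imply for 1 junction if shares add up to the whole. Diamonds are values for events of 2 junctions and bars the full range allowed for events of 3 junctions, with knockdown in red and mock knockdown in grey. The share of Cacna1b exon 37b is lower in the knockdown (68.4%) than in the mock knockdown (86.2%), and that of the Kcnd3 exon is higher (72.6% against 51.5%). The Cacna1b shares leave out exon 37a, which has no listed junction.

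Among all channel junctions, 9 of 15 had p under 0.05 in the authors' deposited table, against 76.2% of all listed junctions with a p. All 4 junctions of Cacna1b and Kcnd3 are among them, since the junctions of a pair share 1 p. In the events of 3 or more junctions it was 5 of 11 (45.5%), close to the 42.4% over all such events. Of the 9, 5 were higher and 4 lower after knockdown. Nothing is read from this split, since each pair gives 1 of each by construction. The same split over all listed junctions was not counted. The smallest p of an event ran from 0.0194 (Cacnb3) to 0.0485 (Cacna1b), which puts the channels at ranks 247 to 565 of 585. The largest such p in the list was 0.04999, so Cacna1b (rank 565) and Scn8a (rank 544) stand just inside it. Events just outside it were not analysed here.

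The junction nearer to the shared site was higher in the Kcnd3 event and lower in the Cacna1b event, and over all events of 2 junctions it was higher in 42.9%. By the spread between the highest and the lowest fold of an event, Scn8a, at 3.20 on the log2 scale, exceeded 97.7% of the events of 3 or more junctions, whose median was 1.48. Scn3a (1.74) and Cacnb3 (1.13) exceeded 62.7% and 26.0% of them. Kcnd3 (1.32) and Cacna1b (1.53) lay on either side of the median of 1.36 for events of 2 junctions. Since the spread comes from the contrast that selected the events, these positions are descriptions.

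**Figure D4:**
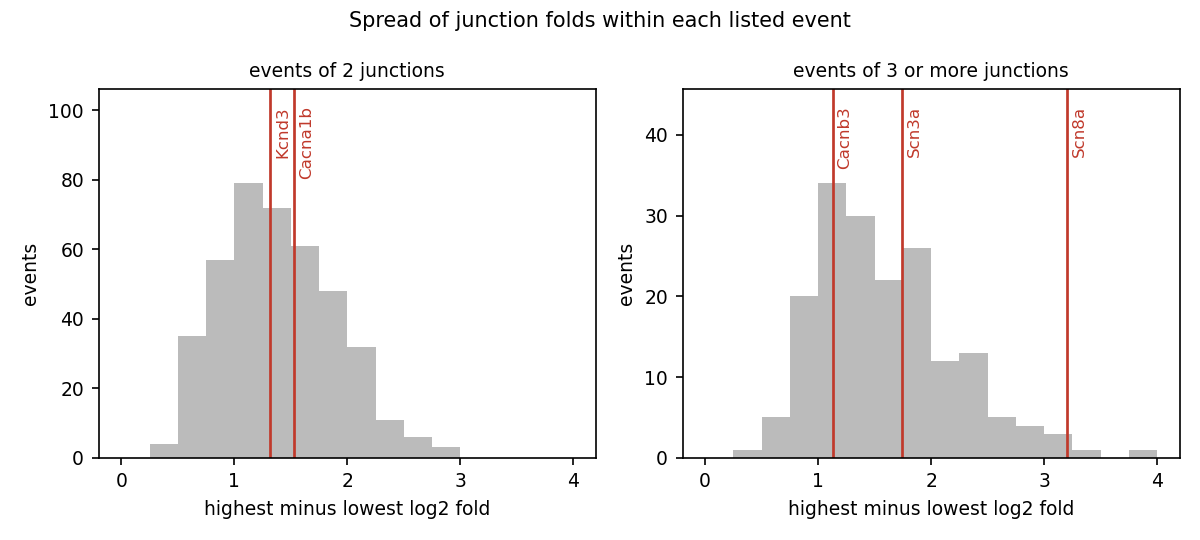
Grey histograms count events by the highest minus the lowest log2 fold among their junctions, for events of 2 junctions (left) and of 3 or more (right), and red lines mark the channel genes. Kcnd3 and Cacna1b are in the middle of the left histogram at 1.32 and 1.53, and Scn8a is in the right tail at 3.20.

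The choice of genes did not use sequence. Of the exons concerned, those of Scn8a (18A) and Kcnd3 keep the frame. Both Scn3a extensions have a length that is a multiple of 3, though their bases were not read for stop codons. Skipping of both Cacna1b exons 37a and 37b does not keep the frame, nor does use of Scn8a exon 18N. Of all 299 cassette exon events, in which 54 exons are counted from both sides, 64.5% have a length that is a multiple of 3. The GC content was 51.5% in exon 37b, 47.4% in the Kcnd3 exon, 48.0% in exon 18A and 47.1% in exon 18N, within the interquartile range of all 245 cassette exons (45.8% to 56.8%). Of the 15 channel junctions, 10 equal annotated introns, and the 5 others are the 3 late donors of Cacnb3 and the 2 of Scn3a. Of all 1402 listed junctions, 1179 (84.1%) are annotated. Introns of the channel junctions had a median of 4095 nt, against 2854 nt over all junctions, and ranged from 1035 nt in Scn3a to 11053 nt for skipping in Scn8a.

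The list of channel genes examined was wider than the 5. Of 84 genes of calcium, sodium and potassium channels and their auxiliary subunits considered here, 5 (5.95%) had an event, which are those described above. Of the 21877 genes with a protein-coding transcript in the gene models, 409 (1.87%) had one. The channel genes were listed with these events known and which genes the neurons expressed is not in the table, so nothing is read from the difference between these shares. They were 2 of 18 calcium channel genes, 2 of 14 sodium channel genes and 1 of 39 potassium channel pore genes. None of the 13 auxiliary subunits of potassium channels had one.

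By the size of the change alone, the cassette exon events most like those of the channels were in Lrrc45 and Anks3 for Cacna1b (inclusion ratio 0.346 times for each) and in Dapk3 and Kif2a for Kcnd3 (2.49 and 2.51 times). Likeness was measured on 1 comparison and implies no further relation.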

How the data were processed

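Per the labels, polyA RNA was taken with RNeasy columns and made into libraries with the PrepX mRNA kit. Per the submitters' processing notes, reads were aligned to mm10 with TopHat2 2.0.4. Junction counting, the test, filters and pooling are not named by these sources. For each junction a log2 fold, knockdown over control, and a p-value were deposited, and per the file headers no adjustment is named, so the p is taken as unadjusted. No counts or values per sample are in the table, so depth and precision are unknown and no test was made. All junctions of the 5 genes were described. The members, gene lists and pairs of junctions were chosen with earlier results of these data known.

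Positions became introns by adding 1 to start and end, and were compared with GENCODE M21. A cassette exon event has 2 junctions, an annotated exon at the nearer variable site that ends inside the farther intron, and an annotated farther site. This can include exons that exchange for each other, and 299 events met it. A change is the log2 fold of one junction minus that of another. Share calculations were tested on simulated shares that add up to the whole, and adjustment on simulated p-values. This checks the code and not whether the real shares add up. An item of the channel list is not reported here. Besides the members, the text names genes of the channel and regulator lists with an event, and for each member cassette the 2 events nearest in change. Python 3.11.15, pandas 2.3.3 and numpy 2.4.6 were used.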

Additional observations from a re-analysis of the deposited data

How the results depend on the processing

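With the junction of smaller fold alone the log2 change was -0.33 for Cacna1b and 0.50 for Kcnd3, in place of -1.53 and 1.32. Its direction is fixed by construction, since the folds have opposite signs in all 408 events of 2 junctions, and putting the inclusion junction on top is the same subtraction, so neither bears on stability. Counting only p under 0.01 left 0 of the 9 channel junctions under 0.05, and 0 cassette events higher and 0 lower in place of 1 and 1, while 283 of all 1389 junctions with a p (20.4%) and 150 of all 585 events (25.6%) had a p under 0.01. With Benjamini-Hochberg adjustment over the table it was 0 as well (adjusted p from 0.0592 to 0.0654 for the 9), and as the table was already selected by p that adjustment is no error rate. Of all listed junctions 304 kept an adjusted p under 0.05. Using annotated junctions alone, or each exon once, could not remove either cassette event and is no check of them. With no shift of positions, or with 1 added to start only, 0 of 15 junctions equalled an annotated intron, in place of 10. Taking the highest minus the lowest fold, an alternative chosen after seeing the data, gave 1.13 for Cacnb3 in place of 0.64, 3.20 for Scn8a in place of 2.22, and 1.74 for Scn3a as before. No paired analysis was possible because the table holds no value per sample, and for the same reason no replicate could be left out. The unknown depth limits each fold.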

Other observations

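Of 14 regulators known for neuronal and channel exons (Rbfox, Nova, Ptbp, Mbnl, Elavl, Celf and Srrm4 genes), 5 (35.7%) had 6 events of their own in the list, against 409 of 21877 genes with a protein-coding transcript (1.87%). The regulators were listed with earlier results of these data known, and which genes the neurons expressed is not in the table. The 2 shares are therefore a description with no test, and nothing is read from the difference between them. Rbfox genes encode RNA-binding proteins known to act on neuronal exons. Use of the nearer relative to the farther junction was 2.84 times that of the mock knockdown in Rbfox3 and 2.48 times in Rbfox1. In Rbfox2 an unannotated junction had a log2 fold of 1.70 (p = 0.0337) in the authors' deposited table, while its 3 other junctions had p of 0.676 to 0.900. Elavl2 included an exon of 39 nt at 2.17 times the mock ratio, and Celf4 one of 85 nt at 0.482 times. In a second Celf4 event 1 annotated junction had a log2 fold of 0.88 (p = 0.0362) in the authors' deposited table, while its 4 other junctions had p of 0.246 to 0.475. The protein level or activity of these regulators is not in the table, and their part in the channel events was not tested.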
